A study of Rattus norvegicus with 48 samples.

Results

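The miR-29 family of collagen regulators was followed in rat blood plasma during healing of a skull bone defect. Its 3 members, miR-29a-3p, miR-29b-3p and miR-29c-3p, were taken by name from the 645 miRNAs with a read in the deposited count table. The table covers 48 plasma samples from 12 male rats, 12 weeks old at surgery. The study's methods name the strain as Sprague-Dawley and its abstract as Wistar. Each rat was bled before surgery (baseline) and 1, 4 and 8 weeks after a defect was drilled into the calvaria. After healing, the study picked these 12 rats from a larger set by bone volume on microCT, as the 6 best and 6 worst healers. They are called strong and weak regenerators, and the rats in between are not in the table. It holds no unoperated rats either. Changes after surgery therefore cannot be told apart from age or from repeated anaesthesia and bleeding. The defects had been left empty or filled with a collagen hydroxyapatite scaffold, a scaffold carrying plasmid for BMP2 and miR-590-5p, or a scaffold carrying vesicles of Wharton's jelly stromal cells. These treatments were spread unevenly over the groups, and rats with the scaffold alone were among the strong regenerators only. The treatment of each rat was not used here, so strong against weak is in part also a comparison of treatments. Baseline samples carry no regeneration label and were placed in a group through the animal's later labels.

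MicroRNAs are short RNAs that guide the silencing complex to messenger RNAs, mainly through the seed, the bases near their 5′ end. The miR-29 family is known for holding down collagens, elastin, fibrillin and other matrix genes, and falls in many forms of organ fibrosis. In bone it is known to be induced by Wnt signalling in osteoblasts, where it targets both Wnt inhibitors and the matrix gene osteonectin. In plasma, miRNAs are carried by vesicles, lipoproteins and protein complexes, and most come from blood cells, endothelium and liver, so a plasma level does not name the tissue of origin.

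The 3 mature sequences are shown because the family is defined by its seed and because the members are so alike that read assignment matters. The seed, bases 2 to 8 from the 5′ end, is in capitals (RefSeq, build GRCr8).
rno-miR-29a-3p: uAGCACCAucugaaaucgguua
rno-miR-29b-3p: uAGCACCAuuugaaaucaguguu
rno-miR-29c-3p: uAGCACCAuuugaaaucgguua

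The seed AGCACCA stood at bases 2 to 8 in only these 3 of 693 mature rat miRNAs in the RefSeq table (0.433%). Counted from the 5′ end, miR-29a-3p and miR-29c-3p differed by C10U alone. miR-29b-3p and miR-29c-3p shared their first 17 bases and then differed by A18G, G21U and U22A. miR-29b-3p also ends in AGUGUU (bases 18 to 23), a hexamer known to direct this miRNA to the nucleus, which lay at the 3′ end of 2 of the 693 sequences (0.289%). Because reads from 17 bases on were kept and 1 mismatch to miRBase was allowed, the shortest reads cannot separate miR-29b-3p from miR-29c-3p. A full-length read of miR-29a-3p or miR-29c-3p also matches the other within that 1 mismatch. How reads that match more than 1 member were divided is not given in the sources used here.

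The family is encoded by 2 pairs of hairpins, and the coordinates given are those of the mature miRNAs within them. miR-29a-3p came from Mir29a (chr4:60617968-60617989, minus strand) and miR-29b-3p from Mir29b1 (chr4:60618342-60618364, minus strand), with 291 bases between the 2 hairpins. The other pair lies on chromosome 13, plus strand, with miR-29b-3p in Mir29b2 (chr13:109098882-109098904) and miR-29c-3p in Mir29c (chr13:109099412-109099433). Between these 2 hairpins lie 447 bases. miR-29b-3p is the same sequence at both loci, so its counts belong to neither alone. RefSeq lists the chromosome 13 pair within a long non-coding RNA gene, LOC102550527, and 3 further miRNA genes across the hairpins (Mir3556a, Mir3587 and Mir3556b). Those 3 are read from the opposite strand and had no row in the count table.

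Library size, the sum of miRNA counts, lay between 393259 and 1586398 reads. Values are given as reads per 1000000 miRNA reads (RPM), and changes as log2 fold changes with their standard error (SE) from edgeR with TMM scaling, fitted over the whole table, with the Benjamini-Hochberg false discovery rate (FDR) called below 0.05. The libraries of week 8 stood apart in the spike-in UniSp2, a synthetic RNA from a mix added in fixed volume at RNA extraction. It made up 91.1 to 144 reads per 1000 miRNA reads in the 12 libraries of week 8 and 23.3 to 60.4 in the 36 earlier ones, with no overlap. RPM and TMM values are therefore shares of the miRNAs in a sample, and values scaled to the spike-in are given beside those whose direction or call they change.

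All 3 members were read in 48 of 48 samples, in the order miR-29a-3p above miR-29c-3p above miR-29b-3p in every sample. miR-29a-3p ranked 11th of 645 miRNAs by mean level (18218 RPM), miR-29c-3p 48th (3328 RPM) and miR-29b-3p 151st (177 RPM). At baseline miR-29a-3p supplied 86.6% ± 3.3 (SD, n = 12) of the family's reads, miR-29c-3p 12.5% ± 3.41 and miR-29b-3p 0.895% ± 0.140. At week 8 the shares were 74.0% ± 3.55, 25.4% ± 3.5 and 0.623% ± 0.141. Counts behind single values ran from 3466 reads for miR-29a-3p and 880 for miR-29c-3p down to 25 for miR-29b-3p, a count whose exact 95% Poisson interval is 16.2 to 36.9. That interval covers counting error only, since the reads carried no molecular identifiers in the sources used here.

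miR-29a-3p, the most abundant member, did not pass the test at weeks 1 and 4 and was lower at week 8. At baseline it lay between 13108 and 30322 RPM in strong regenerators (median 19578, n = 6) and between 18002 and 23184 in weak regenerators (median 19477, n = 6). At week 1 the medians were 19774 (10416 to 29958) and 18696 (10878 to 22936), and at week 4 they were 21734 (13108 to 25049) and 23990 (15853 to 29042). At week 8 strong regenerators lay between 9573 and 17963 RPM (median 10881) and weak regenerators between 8498 and 16095 (median 12065). All 6 weak samples of week 8 were below every weak baseline sample, whereas in the strong group the ranges overlapped. Over both groups 5 of the 12 samples of week 8 were below all 36 earlier samples.

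Against baseline, miR-29a-3p fell by 0.68 at week 8 on the log2 scale (SE 0.14, edgeR FDR 5.71e-05), to 0.624 of the baseline level, a decrease seen in 11 of 12 rats. At week 1 the log2 fold change was 0.01 (SE 0.14, edgeR FDR 0.964) and at week 4 it was 0.23 (SE 0.14, edgeR FDR 0.375), neither past the threshold. Across the 620 miRNAs tested at week 8, 26.1% were called lower and 14.2% higher. Among 310 miRNAs with a mean of at least 10 RPM, 94 fell further than miR-29a-3p, so its decrease was within the common range of that time point.

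**Figure D1:**
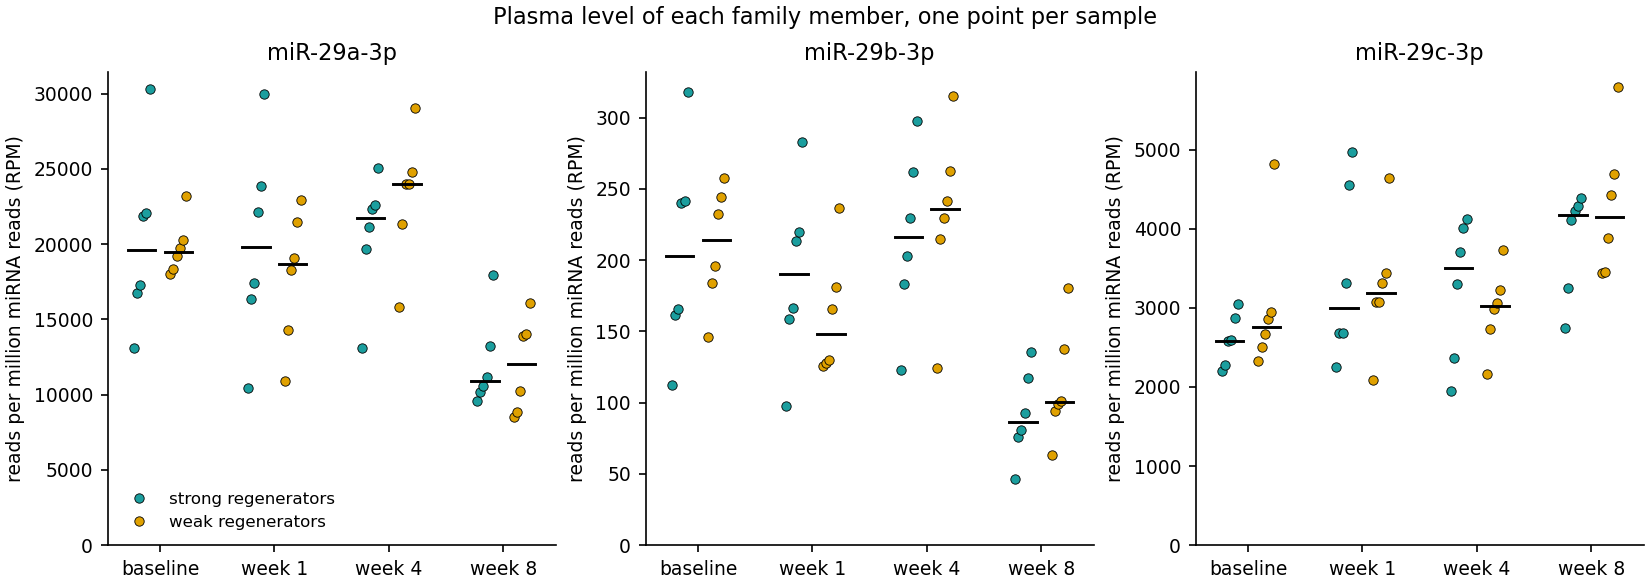
Level of each member in RPM (linear axis from 0) at each time point, one point per plasma sample, strong regenerators in turquoise and weak regenerators in yellow, with a black line at the median of 6 samples. miR-29a-3p and miR-29b-3p were lower and miR-29c-3p was higher at week 8, relative to all miRNA reads (with spike-in scaling all 3 were lower), and strong and weak samples overlapped at every time point.

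miR-29b-3p, the least abundant member, was also lower at week 8. In strong regenerators it ranged from 112 to 318 RPM before surgery (median 203), from 97.7 to 283 in week 1 (median 190) and from 123 to 297 in week 4 (median 216). In weak regenerators it ranged from 146 to 257 RPM before surgery (median 214), from 126 to 236 in week 1 (median 148) and from 125 to 315 in week 4 (median 236). At week 8 it ranged from 46.5 to 135 RPM (median 86.6) in strong and from 63.6 to 181 RPM (median 100.1) in weak regenerators. These are the lowest medians of the series for this miRNA, and 6 of the 12 samples of week 8 were below all 36 earlier ones.

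The decrease of miR-29b-3p at week 8 was 0.98 on the log2 scale (log2 fold change -0.98, SE 0.19, edgeR FDR 2.0e-05), to 0.508 of baseline, and 11 of 12 rats showed it. Of the 310 abundant miRNAs 63 fell further. At week 1 the log2 fold change was -0.15 (SE 0.18, edgeR FDR 0.584) and at week 4 it was 0.21 (SE 0.18, edgeR FDR 0.544).

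miR-29c-3p, which differs from miR-29a-3p by a single base, moved the other way relative to all miRNA reads. Strong regenerators had 2203 to 3051 RPM at baseline (median 2586) and weak regenerators 2326 to 4818 (median 2760). At week 1 the medians were 3000 (2248 to 4968) in strong and 3192 (2087 to 4634) in weak regenerators, and at week 4 they were 3504 (1946 to 4120) and 3026 (2159 to 3724). At week 8 strong regenerators had 2740 to 4388 RPM (median 4168) and weak regenerators 3445 to 5785 (median 4149). The ranges of all time points overlapped, and 1 sample of week 8 was above all earlier ones.

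The increase of miR-29c-3p at week 8 was 0.61 on the log2 scale (SE 0.12, edgeR FDR 2.59e-05), to 1.52 times baseline, with 11 of 12 rats higher. 56 of the 310 abundant miRNAs rose further. With UniSp2 scaling miR-29c-3p was lower at week 8 instead (log2 fold change -1.32, edgeR FDR 1.33e-09). At week 1 the log2 fold change was 0.36 (SE 0.12, edgeR FDR 0.0301), with 8 of 12 rats higher, against a background of 12.5% of tested miRNAs called higher and 9.05% called lower. That call did not hold when the counts were scaled by library size (log2 fold change 0.25, FDR 0.239) or by UniSp2 (0.061, FDR 0.849), or when rat 3, 6, 16, 17, 21, 23 or 29 was left out, each of which gave an edgeR FDR between 0.0549 and 0.180. At week 4 the log2 fold change was 0.24 (SE 0.12, edgeR FDR 0.269, unadjusted p = 0.0475). With UniSp2 scaling the week 4 values were -0.15 for miR-29a-3p, -0.17 for miR-29b-3p and -0.14 for miR-29c-3p. None of the 3 members was called at week 4 by edgeR, DESeq2 or limma-voom, and 4.19% of all miRNAs tested were called in either direction.

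**Figure D2:**
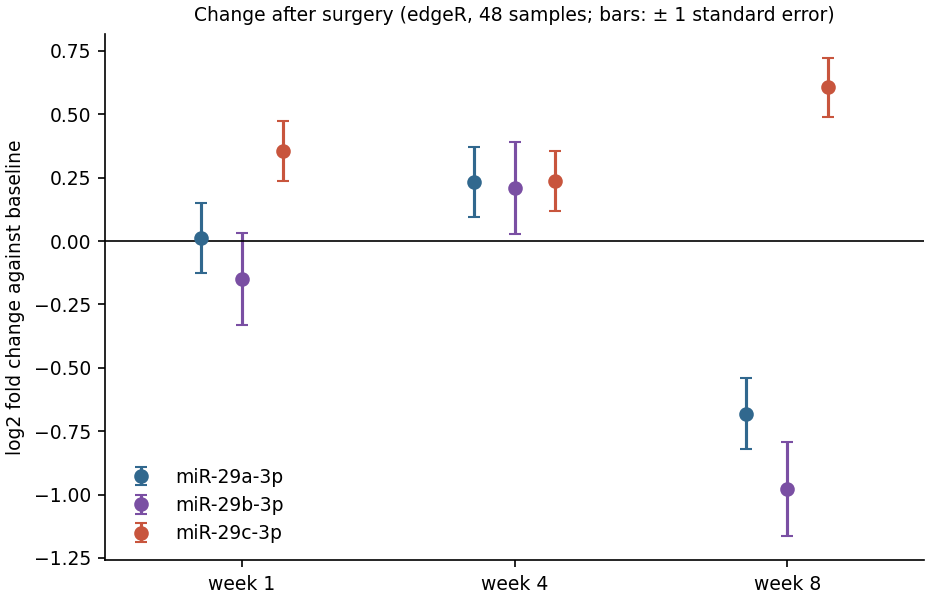
Log2 fold change of each member against baseline at weeks 1, 4 and 8, from the edgeR fit over 48 samples with TMM scaling; points are estimates and bars are 1 standard error either way. The 3 members lay close together at week 4 (0.21 to 0.24) and apart at week 8 (-0.98, -0.68 and 0.61); with spike-in scaling the week 8 values are -2.85, -2.56 and -1.32.

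Week 8 was also compared with weeks 1 and 4, a comparison added after the values had been seen, to learn whether its difference depended on the baseline samples. miR-29a-3p was lower than at week 1 by a log2 fold change of -0.69 and than at week 4 by -0.91 (SE 0.14 in both, edgeR FDR 6.33e-05 and 2.89e-07). miR-29b-3p gave -0.83 and -1.19 (SE 0.19 in both, edgeR FDR 0.000322 and 5.2e-07). miR-29c-3p was higher than at week 4 (0.37, SE 0.12, edgeR FDR 0.00913), while against week 1 its difference of 0.25 (SE 0.12, edgeR FDR 0.0939) did not pass. Leaving out rat 3, 17, 23 or 29 brought that last difference past the threshold, with log2 fold changes of 0.34 to 0.44. With UniSp2 scaling miR-29c-3p was lower at week 8 than at week 1 (-1.38) and than at week 4 (-1.18), both past the threshold, and the other two members stayed lower. Of all miRNAs tested, 21.3% were lower and 11.7% higher than at week 1, and 25.8% were lower and 14.3% higher than at week 4.

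The ratio of 2 members within a sample is free of library size and spike-in. A difference in handling that acts unequally on the 2 members would still move it, and this was not tested. Each ratio was compared within each rat by an exact sign-change permutation test over 12 rats (two-sided, every combination of signs, 9 tests adjusted by Benjamini-Hochberg). Before surgery the ratio of miR-29a-3p to miR-29c-3p had a median of 7.43 (3.81 to 9.94). Week 1 brought a median of 5.39 (3.51 to 8.89), week 4 one of 6.86 (4.26 to 11.1) and week 8 one of 2.97 (2.27 to 4.19). It was lower at week 8 in 12 of 12 rats, and 10 of the 12 samples were below all 36 earlier samples. The mean within-rat change at week 8 was -1.28 on the log2 scale (SD 0.48), to 0.411 of baseline, with p = 0.000488 in the exact permutation test, the smallest it can give, and an adjusted p of 0.0022.

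The ratio of miR-29b-3p to miR-29c-3p changed likewise, from a median of 0.0820 at baseline (0.0303 to 0.109) to 0.0251 at week 8 (0.0164 to 0.0316). Its mean log2 change was -1.59 (SD 0.62), to 0.332 of baseline, in 12 of 12 rats (exact permutation p = 0.000488, adjusted 0.0022). The 2 miRNAs of this ratio are the pair encoded on chromosome 13 (miR-29b-3p also on chromosome 4). Both ratios were also lower at week 1, that of miR-29a-3p by -0.35 (SD 0.38, 11 of 12 rats, exact permutation p = 0.0107, adjusted 0.0211) and that of miR-29b-3p by -0.48 (SD 0.49, 10 of 12 rats, exact permutation p = 0.0112, adjusted 0.0211). With the same samples taken as unpaired, neither week 1 difference passed, with adjusted p of 0.0875 and 0.0569 in a permutation test over 24 samples. At week 4 the mean changes were -0.01 and -0.04, with adjusted p of 0.929 for both in the exact permutation test.

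miR-29a-3p and miR-29b-3p, the pair encoded on chromosome 4 (miR-29b-3p also on chromosome 13), stayed closer to each other. Medians of their ratio were 98.0 before surgery and 106, 101 and 116 in weeks 1, 4 and 8. The week 8 change of 0.31 on the log2 scale (SD 0.38) was in the same direction in 10 of 12 rats (exact permutation p = 0.0117, adjusted 0.0211), which means that miR-29b-3p fell somewhat further than miR-29a-3p. At week 1 the change was 0.14 (SD 0.22, adjusted p = 0.0776 in the exact permutation test) and at week 4 it was 0.03 (SD 0.26, adjusted p = 0.929 in the same test).

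**Figure D3:**
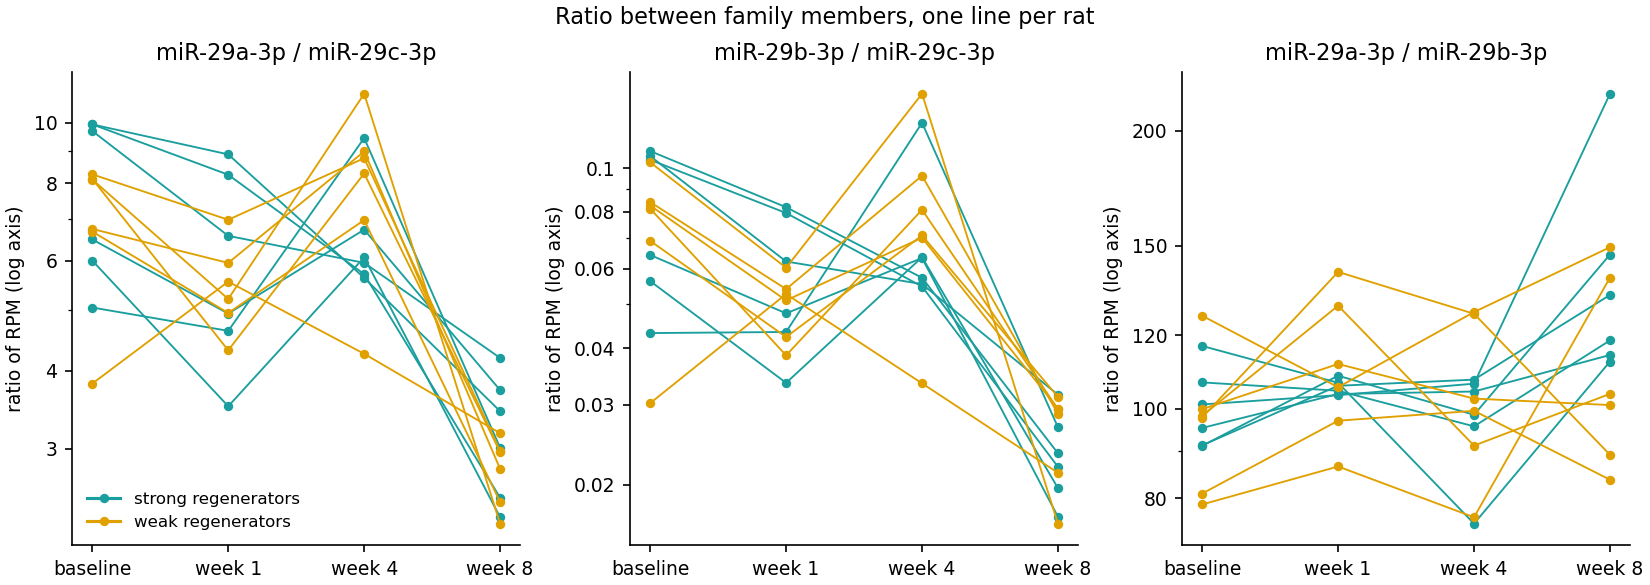
Ratio of RPM between members (log axes) at each time point, with a line for each rat, strong regenerators in turquoise and weak regenerators in yellow. All 12 lines of the first and second panel end at week 8 below their own baseline. The ratio of miR-29a-3p to miR-29b-3p changed less and was higher at week 8 in 10 of 12 rats, with a strong regenerator at 219.

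The direction of miR-29c-3p depended on the scaling. With counts scaled to UniSp2, the log2 fold changes at week 8 were -2.56 for miR-29a-3p, -2.85 for miR-29b-3p and -1.32 for miR-29c-3p, and the median of the 310 abundant miRNAs was -2.01. With TMM that median was -0.12. Relative to the median of the abundant miRNAs, miR-29a-3p lay between -0.56 and -0.54, miR-29b-3p between -0.85 and -0.84 and miR-29c-3p between 0.69 and 0.73 under TMM, library size, RLE and UniSp2 scaling. A scaling moves all miRNAs of a library by 1 factor, so these distances are nearly fixed by construction and are no separate evidence. Per 1000 UniSp2 reads, miR-29a-3p had a median of 546 reads at baseline and 98.0 at week 8, miR-29b-3p 5.64 and 0.820, and miR-29c-3p 76.2 and 32.3. The split of calls over all miRNAs moved with the scaling too, from 88 higher and 162 lower with TMM to 1 higher and 498 lower with UniSp2 at week 8. At week 1 it moved from 29 higher and 21 lower to 3 and 59 with UniSp2 and to 7 and 25 with library size. Less miRNA in the plasma of week 8 and a different handling of those samples cannot be told apart.

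**Figure D4:**
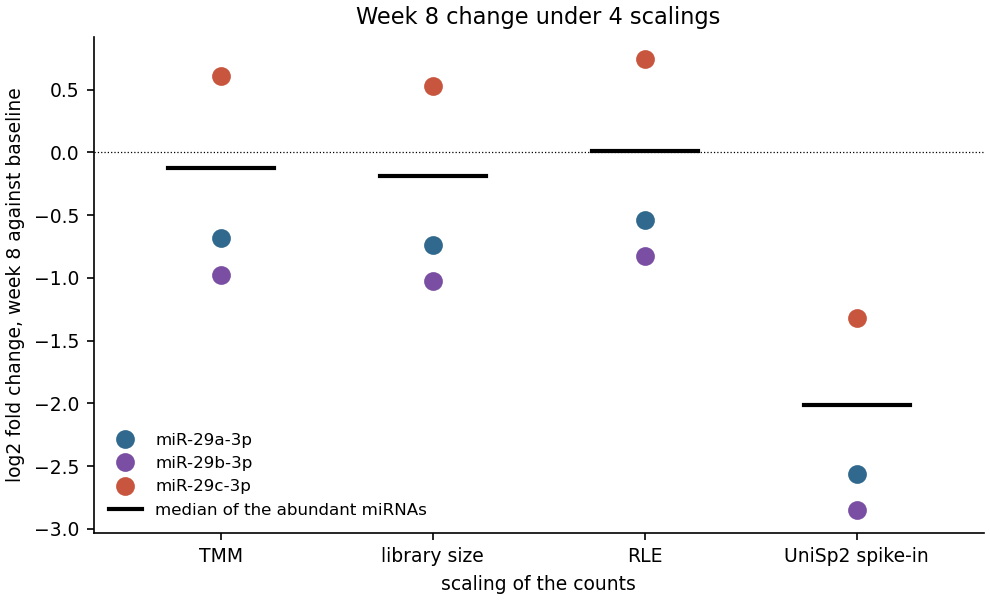
Log2 fold change of each member at week 8 against baseline under 4 scalings of the counts, with a black bar at the median of 310 miRNAs of at least 10 mean RPM and a dotted line at no change. All values are lower with the UniSp2 spike-in, where miR-29c-3p changes sign, while the members keep their order and nearly their distance from the median, as a common factor per library must give.

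Within a time point, rats with more miR-29a-3p had more miR-29b-3p. In time order, Pearson's r of the log2 RPM values over 12 rats was 0.91, 0.92, 0.85 and 0.70, with permutation p adjusted over 12 tests of 0.00048, 0.00036, 0.00459 and 0.0253. Spearman's rho was 0.83, 0.94, 0.71 and 0.63 (adjusted permutation p 0.00948, 0.00024, 0.0347 and 0.065). Without the 2 rats farthest from the median of miR-29a-3p, r was 0.80, 0.90, 0.43 and 0.51, so that the relation at weeks 4 and 8 rested in part on those rats. Both values of a pair come from 1 library.

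miR-29c-3p passed the threshold with the other two at week 8 alone. In the same order of time points its r with miR-29a-3p was 0.00, 0.59, 0.29 and 0.64, and only the last passed after adjustment (permutation p 0.0473 adjusted; rho 0.69, adjusted 0.0365; r 0.54 without the 2 farthest rats). With miR-29b-3p r was -0.25, 0.57, -0.05 and 0.82, again past the threshold only at week 8 (adjusted permutation p 0.00459; rho 0.76, adjusted 0.0242; r 0.50 without the 2 farthest rats). Whether these correlations differ between time points was not tested.

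**Figure D5:**
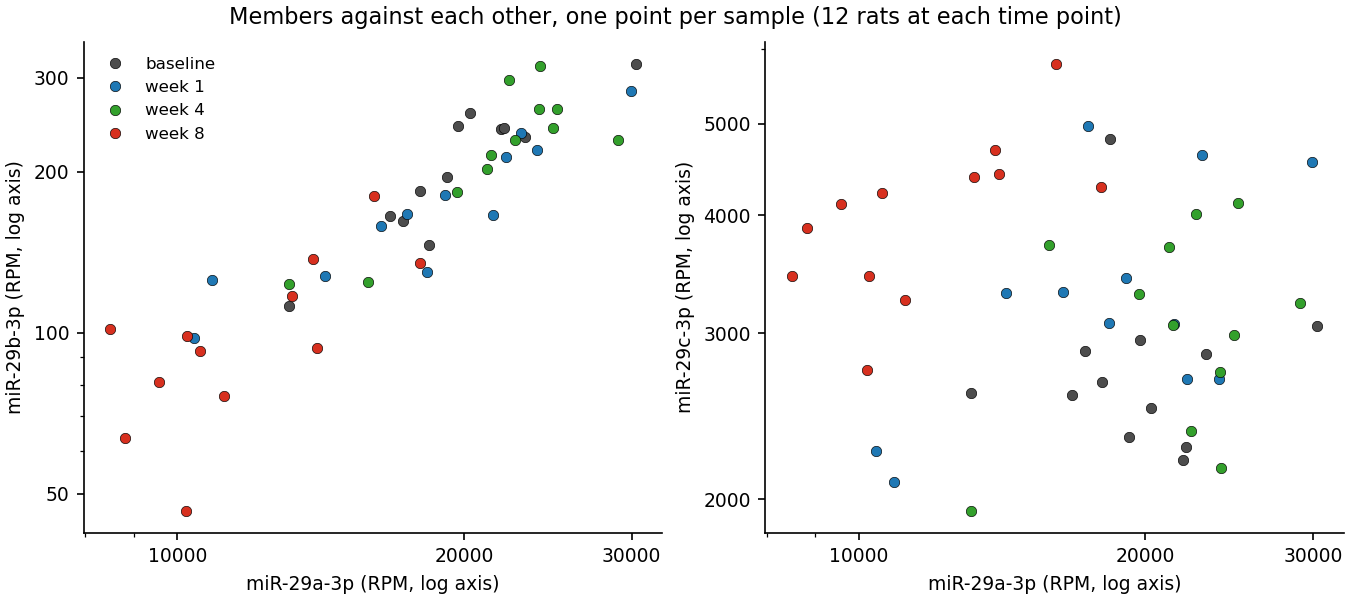
miR-29b-3p (left) and miR-29c-3p (right) against miR-29a-3p in RPM on log axes, one point per sample, coloured by time point, 12 rats in each. On the left the samples of week 8 extend the band of earlier samples to lower values of both miRNAs (r 0.70 to 0.92 within time points), and on the right most of them lie at lower miR-29a-3p for their miR-29c-3p than earlier samples (10 of 12 have a ratio below all 36 earlier ones).

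Strong and weak regenerators, picked as the extremes of bone volume, were compared to ask whether the family's plasma level differed between them. Treatment differed in part between these groups too. None of the 3 members passed the test over all time points in edgeR, nor in DESeq2 or limma-voom, and none had an unadjusted p under 0.05. The log2 difference, strong minus weak, was -0.06 for miR-29a-3p (approximate 95% interval -0.25 to 0.13), -0.13 for miR-29b-3p (-0.38 to 0.13) and -0.12 for miR-29c-3p (-0.28 to 0.04), with an edgeR FDR of at least 0.693. The background was 0% of 645 miRNAs called, with 64 at an unadjusted p under 0.05. The 4 samples of a rat count as independent in that fit. With the mean of each rat as its value, the exact permutation test over every split of the rats gave p = 0.970 for miR-29a-3p, 0.671 for miR-29b-3p and 0.680 for miR-29c-3p (6 against 6 rats, two-sided).

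At single time points no member was called in edgeR or DESeq2 either. The largest differences were at week 8, with -0.44 for miR-29b-3p (approximate 95% interval -0.97 to 0.08, edgeR FDR 0.794) and -0.30 for miR-29c-3p (-0.62 to 0.03, edgeR FDR 0.747), and the remaining ones lay between -0.23 and 0.13. Of all 645 miRNAs, 0% were called at baseline, week 1 and week 4, with 25 to 42 at an unadjusted p under 0.05, and 0.155% at week 8.

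The change over time was also set side by side in both groups, with TMM scaling and so relative to all miRNA reads. At week 8 the log2 fold change against the group's own baseline was -0.74 (SE 0.20) in strong and -0.62 (SE 0.20) in weak regenerators for miR-29a-3p. For miR-29b-3p it was -1.19 (SE 0.27) and -0.79 (SE 0.26), and for miR-29c-3p 0.56 and 0.65 (SE 0.17 in both). The test of the difference between groups gave -0.12 (approximate 95% interval -0.67 to 0.44) for miR-29a-3p, -0.40 (-1.13 to 0.33) for miR-29b-3p and -0.09 (-0.55 to 0.37) for miR-29c-3p at week 8, none past the threshold in edgeR. For none of weeks 1, 4 and 8 was such a difference called in any miRNA (0%), with 26 to 38 at an unadjusted p under 0.05.

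The opposite arms of the hairpins, which are usually degraded once the 3p arm is loaded, were near the detection limit. miR-29a-5p averaged 5.94 RPM and had reads in 47 of 48 samples, miR-29c-5p 2.0 RPM in 35 samples and miR-29b-5p 1.97 RPM in 31 samples. miR-29b-1-5p had a read in 1 sample only. At week 8 the log2 fold changes were -0.11 for miR-29a-5p (SE 0.33), -0.84 for miR-29b-5p (SE 0.67) and 0.59 for miR-29c-5p (SE 0.55), none called by edgeR. Their approximate 95% intervals were -0.77 to 0.54, -2.16 to 0.48 and -0.49 to 1.67. Each includes both no change and the change of its 3p arm.

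The miRNAs whose level over the 48 samples was most like that of each member were found by Pearson's r of log2 RPM among 309 others averaging 10 RPM or more. For miR-29a-3p these were miR-21-5p (r 0.94), miR-30d-5p (r 0.92) and miR-146a-5p (r 0.90), with miR-29b-3p in between (r 0.91). For miR-29b-3p the nearest was miR-29a-3p, followed by miR-30d-5p (r 0.88), miR-30e-5p (r 0.88) and miR-21-5p (r 0.87). For miR-29c-3p they were miR-30a-3p (r 0.81), miR-598-3p (r 0.80) and miR-145-5p (r 0.80), and its own r with miR-29a-3p was -0.08 and with miR-29b-3p -0.18. The most unlike were miR-93-5p (r -0.88) and miR-301a-3p (r -0.86) for miR-29a-3p, miR-181d-5p (r -0.83) and miR-301a-3p (r -0.81) for miR-29b-3p, and miR-17-1-3p (r -0.64) and let-7i-5p (r -0.63) for miR-29c-3p. These values describe samples that share time points and library scaling, and carry no test.

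Because they were picked for likeness over samples that include week 8, the week 8 values of these neighbours are a description and no further support. The log2 fold change against baseline was -1.73 for miR-146a-5p, an inhibitor of inflammatory signalling, -1.66 for miR-30d-5p, -1.10 for miR-30e-5p and -0.91 for miR-21-5p, a miRNA known to promote fibrosis. Among those nearest to miR-29c-3p it was 0.90 for miR-145-5p, a smooth muscle miRNA, 0.85 for miR-30a-3p and 0.81 for miR-598-3p. These values are relative to all miRNA reads.

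Other miRNAs known for effects on collagen or fibrosis, 15 in a list drawn up with earlier results known, gave 2 higher and 8 lower calls at week 8. Their median log2 fold change was -0.45, beside -0.26 over the 620 miRNAs tested and -0.12 over the 310 abundant ones. Of the 620, 14.2% were called higher and 26.1% lower. All 15 averaged at least 10 RPM, whereas those shares include rarer miRNAs and are no like background for the list. The share called among the abundant miRNAs was not computed. Among the lower ones were miR-214-3p, which restrains osteoblasts (-2.07), let-7g-5p (-1.79) and miR-196a-5p (-1.67), and the higher ones were miR-26a-5p (0.92) and miR-145-5p (0.90). The list had 2 lower calls at week 1, miR-196a-5p (-0.89) and miR-214-3p (-0.55), beside 9.05% of all miRNAs tested, and none in either direction at week 4. With spike-in scaling 15 of 15 were called lower at week 8, 3 at week 1 and 2 at week 4. Of 11 miRNAs known to target Runx2, the master factor of osteoblasts, 3 were higher and 2 lower at week 8, beside 14.2% and 26.1% of the 620. Of the 11, 8 averaged at least 10 RPM. miR-338-3p (0.86) was among the higher and miR-30c-5p (-0.77) among the lower ones. None of the 7 tested at week 1 and none of the 11 tested at week 4 was called by edgeR. With spike-in scaling 9 of the 11 were lower and none higher at week 8, and 1 was lower at week 1.

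Marker miRNAs of blood cells also differed at week 8, relative to all miRNA reads. The summed level of 6 leukocyte miRNAs was 25034 to 73303 RPM at baseline (median 44284) and 17416 to 33982 RPM at week 8 (median 24766), with miR-146a-5p, miR-150-5p (-1.52) and miR-142-5p (-1.26) lower and miR-142-3p (1.16) and miR-155-5p (0.92) higher. The 5 red cell miRNAs summed to a median of 260833 RPM at baseline and 322997 RPM at week 8, with miR-144-5p (1.15) and miR-451-5p (1.04) higher and miR-144-3p (-0.41) lower. Of 5 platelet and endothelial miRNAs miR-199a-3p (-2.83) and miR-24-3p (-1.50) were lower. Of 4 liver miRNAs miR-122-5p (-1.18) was lower and miR-802-5p (0.66) higher, and none of 4 skeletal muscle miRNAs was called by edgeR. These counts stand beside 14.2% of the 620 miRNAs tested called higher and 26.1% lower. Those shares include miRNAs under 10 RPM, whereas most of these markers averaged at least 10 RPM. With spike-in scaling no miRNA of these 5 lists was higher at week 8, and all were called lower: 6 of 6, 5 of 5, 5 of 5, 4 of 4 and 4 of 4 in the order given.

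At week 1, beside 12.5% of all miRNAs called higher and 9.05% lower, 4 of 5 red cell miRNAs and all 3 liver miRNAs tested were higher, with miR-451-5p at 0.51 and miR-122-3p at 1.22. The red cell calls were lost with library size and with spike-in scaling (0 of 5 in both), whereas 3 of 4 liver miRNAs were higher under each. 1 platelet miRNA, miR-199a-3p (-0.87), was lower, and 2 of 5 were lower under each of those scalings. Only 1 of 4 skeletal muscle miRNAs was tested at week 1 and it was not called, while with spike-in scaling 2 of 4 were lower, as were 2 of 6 leukocyte miRNAs. None of these lists had a call at week 4. Every marker miRNA of these 5 lists had reads in each group of samples. miR-26a-5p, miR-142-3p and miR-155-5p are named here to complete a count, after their values were seen. The part of blood cells in the changes of the miR-29 family was not tested.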

How the data were processed

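Small RNA of 48 rat plasma samples was sequenced by the authors after single-adapter ligation, and the deposited table holds raw read counts per rat miRNA and 3 spike-ins for each sample. Per the study's methods, reads were trimmed with cutadapt 3.3 (at least 17 bases), mapped with Bowtie 1.3.0 and miRDeep2 to Rnor_6.0 (2 mismatches) and to rat miRBase (1 mismatch), with quality checks in FastQC 0.11.9 and MultiQC 1.10. The submitters' processing notes name GRCh38.p12 instead. The Poisson interval given for a count covers counting error only, while the intervals of log2 differences include the spread between rats.

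From these counts, RPM over all miRNAs, edgeR 4.0.16 quasi-likelihood fits (limma 3.58.1, R 4.3.3; TMM; terms for time point, regeneration group or both; all 48 samples) and a filter on mean RPM chosen as in DESeq2 were computed, the last dropping rare miRNAs from the adjustment. SE is the absolute log2 fold change over the root of F. Ratios and correlations used log2(RPM + 1) with exact or 100000-resample permutation tests (scipy 1.17.1). The fits were tested on simulated data. Samples of the same rat carry its label; the mean correlation of their deviations was 0.107, against -0.009 between rats, and the rat was kept out of the main fit, since the study's methods name no such term. Alternatives were other scalings, filters, DESeq2 1.42.0, limma-voom, a rat block, and leaving out each rat.

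The family and the miRNA lists were chosen for study with earlier results of these data known, although the rule that picks the 3 rows uses their names alone. Named are the 3 members, their 5p arms, for each member the 3 most and 2 least correlated miRNAs, up to 3 called miRNAs per list and comparison by size of change, and UniSp2. Whether the 12 rats of a time point were processed together is not given in the sources used here. The p-values of the main edgeR fits measure the spread between samples, with the samples of a rat taken as independent. Those of the paired ratio tests measure the spread of within-rat changes, and those of the exact test over splits of the rats the spread between rats.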

Additional observations from a re-analysis of the deposited data

Results flagged for a closer look

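Of 48 groups of 6 samples looked at (the 3 members and their 3 ratios, by regeneration group and time point), 6 held a sample apart from the other 5 by a gap above Dixon's 95% critical value of 0.625 of the range. Chance gives about 1 in 20 groups where these are independent and their values normal. The ratios share the values of the members, so the 6 cannot be weighed against that rate. In the weak group at baseline, rat 25 had 4818 RPM of miR-29c-3p, with the next sample at 2951 RPM, and a ratio of miR-29a-3p to miR-29c-3p of 3.81, with the next at 6.69. In the strong group at week 4, rat 5 stood apart in all 3 ratios, with 9.45 for miR-29a-3p to miR-29c-3p (next 6.74), 0.126 for miR-29b-3p to miR-29c-3p (next 0.0636) and 75.0 for miR-29a-3p to miR-29b-3p (next 95.7). In the strong group at week 8, rat 23 had a ratio of miR-29a-3p to miR-29b-3p of 219, with the next at 147.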

How the results depend on the processing

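Limits: the spike-in share of week 8 leaves the direction of miR-29c-3p open to the choice of scaling. The rats' treatments were not modelled and were spread unevenly over strong and weak regenerators, and near-identical members may exchange reads. An unequal effect of week 8 handling on the members cannot be told apart from a change of their ratios with time. Without unoperated rats, healing cannot be told apart from age or repeated anaesthesia and bleeding. At week 8, miR-29a-3p and miR-29b-3p stayed lower and past the threshold in all 22 alternatives, and miR-29c-3p stayed higher in 21. UniSp2 scaling turned miR-29c-3p to -1.32 against baseline, -1.38 against week 1 and -1.18 against week 4, and the week 4 changes to -0.15, -0.17 and -0.14 for miR-29a-3p, miR-29b-3p and miR-29c-3p. Against week 1, miR-29c-3p passed at week 8 with RLE (0.39), filterByExpr (0.40) and DESeq2 (0.39), and leaving out a rat gave 0.17 to 0.44.

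At week 1, miR-29a-3p changed sign with library size (-0.081), UniSp2 (-0.24) and limma-voom (-0.0016), and leaving out a rat gave -0.064 to 0.072. The week 1 call of miR-29c-3p was lost with library size (0.25), UniSp2 (0.061), no filter (0.36), limma-voom (0.34) and the 2 time points only (0.37), and leaving out a rat gave 0.27 to 0.42, with an adjusted p of 0.0195 to 0.849 over all alternatives. The number of miRNAs called at week 1 was 50, but 32 with library size, 25 without a filter and 24 to 47 without a rat. With UniSp2 it was 61 in place of 27 at week 4 and 499 in place of 250 at week 8. The causes were not tested.

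The rats pair the samples by label. With rat as a replicate block the week 8 changes were -0.67, -0.97 and 0.61, and the block changed no call of a member against baseline. The paired ratios of week 1 lost their call when the replicate pairing was ignored (-0.35 for miR-29a-3p to miR-29c-3p and -0.48 for miR-29b-3p to miR-29c-3p). Leaving out a rat gave -0.095 to 0.062 and -0.18 to 0.042 for these ratios at week 4, and for miR-29a-3p to miR-29b-3p 0.10 to 0.17 at week 1 (called without rat 5 or 25) and -0.0040 to 0.087 at week 4.

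Strong against weak, no member was called under any alternative run, and small differences changed sign. miR-29a-3p gave 0.014 over all time points and 0.023 at week 8 with library size, and -0.014 at baseline in the samples of that time point only. miR-29c-3p gave 0.060 at week 1 with library size, and its difference of the week 8 changes gave 0.059. Leaving out a rat gave -0.16 to 0.073 (miR-29a-3p) and -0.23 to 0.046 (miR-29b-3p) at baseline, -0.031 to 0.19 (miR-29a-3p) and -0.14 to 0.12 (miR-29c-3p) at week 1, and -0.0051 to 0.17 (miR-29c-3p) at week 4. Among all miRNAs 1 or 2 were called without rat 2, 3, 26 or 29, in place of 0.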
